A study of Arabidopsis thaliana with 12 samples.

Results

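The comparison of Arabidopsis thaliana plantlets held at 4 °C with plantlets kept at 22 °C covers 6 of the 12 RNA sequencing libraries of the study, 3 per temperature. The libraries were chosen by the temperature in their labels, and all of them entered. Every plantlet was of the ecotype Columbia 0, a standard laboratory wild type, and the labels name no mutation or transgene in either group. Seeds of every group had been chilled at 4 °C before germination, and plantlets grew on agar medium with sucrose at 22 °C with 16 h of light and 8 h of darkness. At 14 days of age the 4 °C group was moved to the cold, while the 22 °C group stayed in the growth chamber. The sample labels give 24 h of cold, whereas the series text can be read as 24 h for 0 °C, 48 h for 4 °C and 72 h for 10 °C. If the series text holds, temperature and duration cannot be told apart between the cold groups. Each library came from a pool of 10 whole plantlets of a Petri plate, roots and shoots together. No label says whether plates of 1 temperature shared a chamber run, and the p-values therefore measure only how much these pools vary.

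A plant moved to 4 °C keeps absorbing light while its enzymes slow down, membranes stiffen and growth stops. The best known transcriptional answer runs through the CBF factors, which bind a short promoter element and switch on protective COR proteins. Beyond that pathway, cold is known to change sugar use, ribosome production, cell walls and secondary metabolism, and those processes are described here.

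The libraries held 33292666 to 41683299 estimated counts at 4 °C, against 33454730 to 40309597 at 22 °C. Between 18126 and 18144 genes reached 1 CPM (counts scaled to a total of 1000000 on annotated genes) at 4 °C, against 18661 to 18715 at 22 °C. The 10 most abundant genes held 8.44% to 8.81% of the counts at 4 °C and 10.5% to 11% at 22 °C. Of 21293 genes tested, 15739 (73.9%) differed at a false discovery rate of 0.05 with edgeR's quasi-likelihood test. Of these, 7735 (36.3%) were higher at 4 °C and 8004 (37.6%) were lower, and 3241 (15.2%) and 3487 (16.4%) of the tested genes changed by at least 2-fold. Of 40 tested genes known for cold induction 36 rose (90%), a list fixed with results of these data known. The 3 libraries at 4 °C all lay above those at 22 °C in 37.2% of the tested genes and all below in 39%. Changes of at least 8-fold were found in 454 genes in the upward and 409 in the downward direction. The median log2 fold change of all tested genes was -0.03, and it moved by -0.14 with scaling by total counts alone and by -0.14 with upper quartile factors. In what follows, CPM are scaled by edgeR's TMM factors, fold changes are log2 ratios (4 °C over 22 °C) followed by ± and their standard error, and a gene said to rise or fall passed that test. Counts of list members are to be read beside the shares of all tested genes, 36.3% higher and 37.6% lower.

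Markers of the plant's parts moved with the temperature. All 15 tested mesophyll markers fell (summed level 47235 to 50356 CPM at 4 °C against 78660 to 82980 CPM at 22 °C), and none was at 0. Those that fell most, LHCB4.2, RBCS2B, LHCB6, PSAD-1 and CA1, are themselves genes of photosynthesis. LHCB4.2 is also 1 of the antenna losses named below, so this list is not independent of those results. Of 19 root markers 10 fell and 3 rose, with a sum of 2029 to 2111 CPM at 4 °C against 3047 to 3139 CPM at 22 °C. The Casparian strip genes CASP4 (-4.57 ± 0.26) and CASP2 (-1.73 ± 0.15), which help build the barrier of the root endodermis, were among the falls. Only 3 of 14 seed markers and 7 of 10 flower markers passed the filter on low counts, with sums of at most 1.41 and 15.1 CPM at 4 °C and 0.72 and 12.8 CPM at 22 °C. Among the seed markers CRU2, LEC1, ABI3, FUS3, SESA1 and SESA3 had no count at 4 °C. In whole plantlets, fewer cells of a type and less RNA per cell cannot be told apart, and the part of these markers in the group results was not tested.

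The largest rises outside the well known cold genes began with UGT78D3 (AT5G17030), a glycosyltransferase that adds arabinose to flavonols. It had 55.8, 50.6 and 55.4 CPM at 4 °C, against 0, 0.104 and 0.0622 CPM at 22 °C (9.76 ± 0.22). PXMT1 (AT1G66700), a methyltransferase gene, had 48, 48.3 and 53.8 CPM at 4 °C, against 0.219, 0.259 and 0.28 CPM at 22 °C (7.60 ± 0.11). RVE2 (AT5G37260), a MYB-like factor related to the clock proteins, had 47.5, 41.5 and 41.9 CPM at 4 °C, against 0.658, 0.0259 and 0 CPM at 22 °C (7.64 ± 0.34). In each of these genes the 4 °C libraries lay close together and the 22 °C libraries were below 1 CPM. The 22 °C libraries of RVE2 differed, with 0.658 CPM in the first and 0.0259 and 0 CPM in the others. ADH1 (AT1G77120), the alcohol dehydrogenase of fermentation, stood at 1388, 1393 and 1370 CPM at 4 °C and at 11.6, 11.7 and 11.9 CPM at 22 °C (6.88 ± 0.036). The other rises were AT4G25433 (7.71 ± 0.11), a LysM domain protein, AT2G24560 (7.53 ± 0.16), a GDSL lipase, AT1G70640 (7.53 ± 0.061), a PB1 domain protein, and the transporter AT1G04570 (7.24 ± 0.050). AT4G18422 (7.37 ± 0.14) and AT1G16850 (7.32 ± 0.072) are described as uncharacterized.

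The largest falls named several genes of metals, walls and light. FRO6 (AT5G49730), a ferric reductase of green tissue, had 14.3, 15.3 and 14.3 CPM at 4 °C, against 735, 713 and 675 CPM at 22 °C (-5.60 ± 0.044). BXL1 (AT5G49360), a xylosidase that trims cell wall polymers, had 11.4, 11.2 and 10.6 CPM at 4 °C, against 493, 476 and 445 CPM at 22 °C (-5.41 ± 0.063). BBX27 (AT1G68190), a B-box zinc finger gene, had 0.442, 0.243 and 0.523 CPM at 4 °C, against 33.8, 36.1 and 37.1 CPM at 22 °C (-6.44 ± 0.23). No library of the cold group came near the 22 °C range in these genes. The rule for the largest rises and falls took only genes whose groups did not overlap, so this gap was set by selection. Further falls were AT2G29300 (-7.24 ± 0.61), an oxidoreductase of the Rossmann-fold type, the methyltransferase AT1G15125 (-6.12 ± 0.55), the cytochrome P450 CYP71B18 (-5.83 ± 0.55), the transporter AT1G18010 (-5.71 ± 0.42), AT1G13650 (-5.57 ± 0.10) and AT5G19190 (-5.53 ± 0.11). AT1G20430 had no count in any 4 °C library, at least 144-fold lower than the mean of 13.7 CPM at 22 °C when each library is given 3 counts as its detection floor, which covers counting error only. Its fall cannot be told apart from assignment of its reads to assembled transcripts that carry no gene name.

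**Figure D1:**
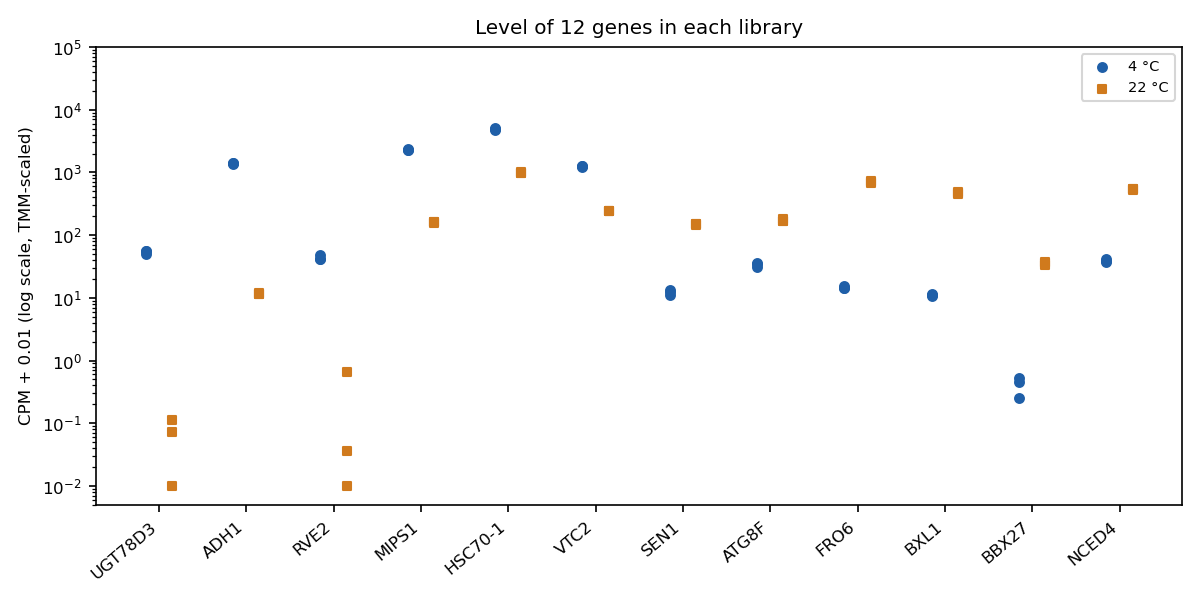
CPM of 12 genes in each library on a log axis, after adding 0.01 so that 0 can be drawn; circles are the 3 libraries at 4 °C and squares the 3 libraries at 22 °C. In every gene the 2 groups lie apart, and the replicates of a group mostly overlap, except at levels below 1 CPM (UGT78D3 and RVE2 at 22 °C, BBX27 at 4 °C). The genes were chosen for large changes in these same libraries, so the gap between groups is a description.

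In absolute terms, the largest gains went to starch breakdown, chaperones, walls and a few biosynthetic enzymes. CT-BMY (AT4G17090), the chloroplast beta-amylase that releases maltose from starch, reached 8146, 8016 and 7766 CPM at 4 °C, against 203, 205 and 204 CPM at 22 °C (5.29 ± 0.026). HSC70-1 (AT5G02500), a cytosolic chaperone, stood at 4988, 5108 and 4708 CPM at 4 °C and at 991, 1011 and 981 CPM at 22 °C (2.31 ± 0.032), and its relative AT3G09440 averaged 3972 ± 152 CPM against 117 ± 3.03 CPM (mean ± SD of 3 libraries). Reads of these similar Hsp70 genes may be divided between copies. TT4 (AT5G13930), chalcone synthase at the entry to flavonoid synthesis, had 2686, 2787 and 2706 CPM at 4 °C, against 129, 136 and 131 CPM at 22 °C (4.37 ± 0.039). MIPS1 (AT4G39800), which makes the inositol skeleton, had 2357, 2285 and 2240 CPM at 4 °C, against 163, 164 and 157 CPM at 22 °C (3.83 ± 0.031). The wall-to-membrane linker gene CWLP (AT3G22120, 2.74 ± 0.039), ENODL2 (AT4G27520, 3.18 ± 0.039), P5CS2 (AT3G55610, 3.56 ± 0.042) of proline synthesis, AT1G13930 (1.47 ± 0.075), described as oleosin-like, and HOG1 (AT4G13940, 1.97 ± 0.023), which recycles the by-product of methylation reactions, completed the gains.

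All of the 10 largest losses were antenna genes of the photosystems. LHB1B2 (AT2G34420) lost most, with 6809, 7225 and 7417 CPM at 4 °C, against 16777, 17056 and 18429 CPM at 22 °C (-1.28 ± 0.048). CAB1 (AT1G29930), the most abundant of them, changed little in proportion (-0.35 ± 0.044), with 19253 ± 784 CPM at 4 °C and 24606 ± 971 CPM at 22 °C (mean ± SD of 3 libraries). LHB1B1 (AT2G34430, -2.90 ± 0.054) fell more than its close copy LHB1B2, and division of reads between such copies is uncertain. LHCA1 (AT3G54890, -1.34 ± 0.042), LHCA2 (AT3G61470, -1.22 ± 0.046) and LHCA3 (AT1G61520, -1.09 ± 0.032) of photosystem I fell by similar amounts, as did LHCB3 (AT5G54270, -1.38 ± 0.031), CAB3 (AT1G29910) and LHCB5 (AT4G10340, -0.85 ± 0.032). LHCB4.2 (AT3G08940) fell furthest in proportion among these genes (-3.42 ± 0.045), with 282 CPM at 4 °C and 3017 CPM at 22 °C.

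The bases before the annotated starts of these genes were read for short elements named in cold, clock and stress regulation, since many named genes moved together. Windows of 250 bases before the gene start, from RefSeq's annotation of the TAIR10.1 genome, were found for 21089 of the tested genes and searched on both strands. CCGAC, the core bound by CBF factors, occurred in 23.7% of the windows of genes called at least 8-fold higher at 4 °C, 8.66% of those called at least 8-fold lower and 12.8% of all windows. Without the well known cold genes, a list of 42, the first share was 23.1%, over 412 windows in place of 439. Other genes known from cold may remain among the 412. AAAATATCT, the evening element of clock factors, was in 5.92% of the windows of the genes at least 8-fold higher, 1.98% of those at least 8-fold lower and 2.53% of all. ACGTG, the core of abscisic acid elements, was in 36%, 26.7% and 24% of the same 3 sets of windows, and CACGTG, the G-box, which contains ACGTG, in 14.4%, 7.67% and 7.32%. These matches are a description of letters and not of binding. Of the 20 genes with the largest rises or gains, 13 held at least 1 of the 4 elements, and of the 20 with the largest falls or losses 5 did, all through ACGTG. The share of all windows with at least 1 of the 4 elements was not counted, so these counts have no base. ACGTG alone was in 24% of all windows, near the 5 of 20 in the falls or losses.

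Of the named genes, 5 windows are shown because they hold the elements of each kind, with 1 from a gene that fell. Each runs 5′ to 3′ on the gene's strand and ends at the base before the gene start, and capitals mark the elements. RVE2 holds CCGAC, a G-box and another ACGTG, and MIPS1 holds 3 G-boxes and another ACGTG. UGT78D3 holds 1 evening element, and AT5G66780, described below, holds CCGAC on each strand and 1 ACGTG. FRO6, which fell, holds 1 G-box and another ACGTG.
RVE2, chr5:14753089-14753338, minus strand: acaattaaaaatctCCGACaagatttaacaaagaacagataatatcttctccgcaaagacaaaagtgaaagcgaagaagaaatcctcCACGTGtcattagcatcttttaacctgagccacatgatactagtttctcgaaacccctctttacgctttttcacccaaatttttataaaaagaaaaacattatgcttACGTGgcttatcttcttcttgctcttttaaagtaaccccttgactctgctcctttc
MIPS1, chr4:18472049-18472298, minus strand: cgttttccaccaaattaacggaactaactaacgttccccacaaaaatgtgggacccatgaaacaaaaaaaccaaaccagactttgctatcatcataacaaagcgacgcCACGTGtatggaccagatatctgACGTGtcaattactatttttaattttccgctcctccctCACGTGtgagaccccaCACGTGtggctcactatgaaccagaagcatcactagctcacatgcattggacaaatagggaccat
UGT78D3, chr5:5604894-5605143, minus strand: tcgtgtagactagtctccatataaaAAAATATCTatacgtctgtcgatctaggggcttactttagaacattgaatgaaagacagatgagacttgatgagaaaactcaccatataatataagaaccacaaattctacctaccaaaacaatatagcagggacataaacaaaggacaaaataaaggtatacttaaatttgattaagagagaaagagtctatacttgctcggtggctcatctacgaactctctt
AT5G66780, chr5:26663250-26663499, plus strand: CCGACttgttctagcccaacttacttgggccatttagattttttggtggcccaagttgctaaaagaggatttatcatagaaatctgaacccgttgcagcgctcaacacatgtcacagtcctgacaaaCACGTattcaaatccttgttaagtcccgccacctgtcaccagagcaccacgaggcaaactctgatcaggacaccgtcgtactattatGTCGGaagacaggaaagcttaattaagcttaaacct
FRO6, chr5:20204596-20204845, minus strand: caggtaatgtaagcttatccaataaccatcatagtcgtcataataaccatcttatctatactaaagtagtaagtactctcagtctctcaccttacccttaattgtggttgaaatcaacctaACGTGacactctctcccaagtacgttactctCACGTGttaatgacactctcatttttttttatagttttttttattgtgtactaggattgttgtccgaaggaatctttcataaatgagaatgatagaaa

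Genes of protein production rose broadly. Of 274 tested genes described as ribosomal proteins of all compartments, 192 (70.1%) rose and 48 fell, with a median log2 fold change of 0.54. Their summed level was 35198 to 38357 CPM at 4 °C and 25859 to 28455 CPM at 22 °C, with no overlap. With the near-identical pair AT1G58684 and AT1G58983 set aside, the largest rises in this list belonged to AT5G20160 (2.80 ± 0.050), AT3G58660 (2.67 ± 0.047) and AT5G15750 (2.57 ± 0.052). The annotation describes these genes only as members of ribosomal protein families, so the list may hold genes that are not parts of the ribosome. Translation initiation factors rose in 42 of 55 members and fell in 8 (median 0.81), with EIF4B1 (AT3G26400) at 16.2, 18.5 and 17.6 CPM at 4 °C and 0.72, 2.02 and 2.02 CPM at 22 °C (3.44 ± 0.27). Of 33 aminoacyl-tRNA synthetases, which load amino acids on tRNA, 15 rose and 9 fell (median 0.17), and EMB1030 (AT5G22800, -1.82 ± 0.063) fell most. The share of genes that rose was 45.5% in these enzymes, 76.4% in initiation factors and 70.1% in genes described as ribosomal proteins, beside 36.3% of all tested genes.

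Folding and breakdown of proteins moved in different directions by route (all tested genes: 36.3% rose, 37.6% fell). The cytosolic chaperonin and prefoldin, which fold tubulin and actin, gave 10 rises and no fall among 13 genes (median 0.83), with AT3G03960 (1.48 ± 0.034) and AT1G24510 (1.26 ± 0.025) in front. AT3G03960 had 183, 181 and 184 CPM at 4 °C, against 63.9, 68 and 64.9 CPM at 22 °C. Of 22 genes of folding in the endoplasmic reticulum 14 rose and 3 fell (median 0.45), with the chaperone gene BIP1 (AT5G28540) averaging 590 ± 16 CPM at 4 °C and 157 ± 5.21 CPM at 22 °C (mean ± SD of 3 libraries) and BZIP60 (AT1G42990, 1.35 ± 0.052), a factor of the unfolded protein response, higher too. Proteasome subunits rose in 32 of 38 members (median 0.39) by small amounts, RPT2a (AT4G29040, 0.89 ± 0.028) most. The single subunit gene that fell was AT1G53780 (-1.03 ± 0.083). Autophagy genes went the other way, with 16 falls and no rise among 26 (median -0.42), and ATG8F (AT4G16520), whose product coats autophagosomes, had 35.3, 30.8 and 34.9 CPM at 4 °C against 165, 166 and 179 CPM at 22 °C (-2.33 ± 0.060).

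Genes that are known to be induced by darkness and carbon starvation fell. Of 25 tested, 18 (72%) fell and 3 rose (median -1.04), beside 37.6% and 36.3% of all tested genes. Of the falls, 13 were at least 2-fold. SEN1 (AT4G35770) had 11.2, 12.4 and 13.2 CPM at 4 °C, against 146, 149 and 150 CPM at 22 °C (-3.60 ± 0.070). The sugar transporter STP1 (AT1G11260) had 58, 57.9 and 55.8 CPM at 4 °C, against 416, 417 and 420 CPM at 22 °C (-2.87 ± 0.054). DIN10 (AT5G20250, -3.06 ± 0.056), AKINBETA1 (AT5G21170, -3.07 ± 0.17), a subunit of the energy-sensing kinase, and MCCA (AT1G03090, -2.62 ± 0.097), of leucine breakdown, fell alongside. ASN1 (AT3G47340), the asparagine synthetase of dark-grown tissue, belongs to the nitrogen list and had 35.3, 35.2 and 36.3 CPM at 4 °C against 250, 243 and 239 CPM at 22 °C (-2.78 ± 0.054).

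Mineral nutrition and primary metabolism showed a mixed picture (all tested genes: 36.3% rose, 37.6% fell). Among 39 genes of nitrogen assimilation and amino acid synthesis 21 rose and 10 fell (median 0.31). GSR 1 (AT5G37600), a cytosolic glutamine synthetase, had 391 ± 3.53 CPM at 4 °C and 104 ± 2.46 CPM at 22 °C (mean ± SD of 3 libraries), and ADT5 (AT5G22630, 1.76 ± 0.044), of phenylalanine synthesis, rose. Of 29 phosphate starvation genes 17 rose and 5 fell (median 0.69), with G3Pp1 (AT3G47420), a phosphate-responsive permease, reaching 152, 151 and 153 CPM at 4 °C and 19.3, 19.4 and 20.5 CPM at 22 °C (2.95 ± 0.036). RNS1 (AT2G02990, 3.42 ± 0.35), a ribonuclease, and NPC4 (AT3G03530, 2.01 ± 0.10), a lipid-cleaving phospholipase, also rose. Sulfur assimilation was split, with 11 rises and 16 falls among 34 genes (median -0.10), and APR2 (AT1G62180), the reductase that controls sulfate use, rose to 568 ± 7.17 CPM at 4 °C, against 105 ± 5.44 CPM at 22 °C (mean ± SD of 3 libraries).

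Polyamine genes, beside 36.3% rises and 37.6% falls among all tested genes, rose in 9 of 17 members and fell in 6 (median 0.18). Their first enzymes rose most, ADC2 (AT4G34710) to 846, 897 and 812 CPM at 4 °C, against 202, 202 and 185 CPM at 22 °C (2.11 ± 0.053), and ADC1 (AT2G16500) by 1.81 ± 0.089. Organic acid and glycolytic enzymes gave 17 rises and 17 falls among 39 genes, with a median of 0.03 that turned to -0.10 with total counts alone or upper quartile factors. Within that list LOS2 (AT2G36530), an enolase (1.57 ± 0.026), and PFK7 (AT5G56630, 2.06 ± 0.041), a phosphofructokinase, rose, while the aldolase FBA5 (AT4G26530, -1.67 ± 0.035) fell. Of 16 genes of ascorbate and tocopherol synthesis, the pathways of vitamins C and E, 10 rose and 5 fell (median 0.24). VTC2 (AT4G26850), the controlling step of ascorbate synthesis, had 1277, 1277 and 1235 CPM at 4 °C, against 242, 240 and 244 CPM at 22 °C (2.38 ± 0.029). TAT7 (AT5G53970), a tyrosine aminotransferase on the way to tocopherol, had 369 ± 5.49 CPM at 4 °C and 43.1 ± 0.535 CPM at 22 °C (mean ± SD of 3 libraries), whereas the phytol kinase VTE5 (AT5G04490, -2.21 ± 0.099) fell.

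Plastid processes other than light harvesting fell in part (all tested genes: 36.3% rose, 37.6% fell). The mesophyll markers, which include photosynthesis genes, all fell too. Photorespiration, which salvages carbon after oxygen enters the Calvin cycle, had 10 falls and 1 rise among 11 genes (median -0.92). HPR (AT1G68010), its hydroxypyruvate reductase, had 312, 306 and 282 CPM at 4 °C, against 1066, 1044 and 1020 CPM at 22 °C (-1.80 ± 0.046). Carotenoid genes fell in 12 of 18 members and rose in 5 (median -0.31), but the members moved in opposite directions. NCED4 (AT4G19170), a carotenoid cleavage enzyme, had 38.7, 40.9 and 37 CPM at 4 °C, against 546, 535 and 528 CPM at 22 °C (-3.79 ± 0.039), while BETA-OHASE 2 (AT5G52570), a carotene hydroxylase, had 147, 142 and 146 CPM at 4 °C, against 13.3, 11.1 and 12.8 CPM at 22 °C (3.55 ± 0.056). Plastid transcription and RNA-binding genes gave 9 rises and 15 falls among 28 (median -0.20). There the sigma factor SIGE (AT5G24120, 1.88 ± 0.035) rose to 464 ± 6.69 CPM at 4 °C against 126 ± 4.68 CPM at 22 °C (mean ± SD of 3 libraries), and SIG4 (AT5G13730, -2.09 ± 0.087) fell. Plastid import and protease genes rose in 12 and fell in 11 of 31 members (median -0.01), with the thylakoid protease FTSH8 (AT1G06430, 1.57 ± 0.039) and the import receptor TOC64-III (AT3G17970, 1.41 ± 0.059) among the rises.

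**Figure D2:**
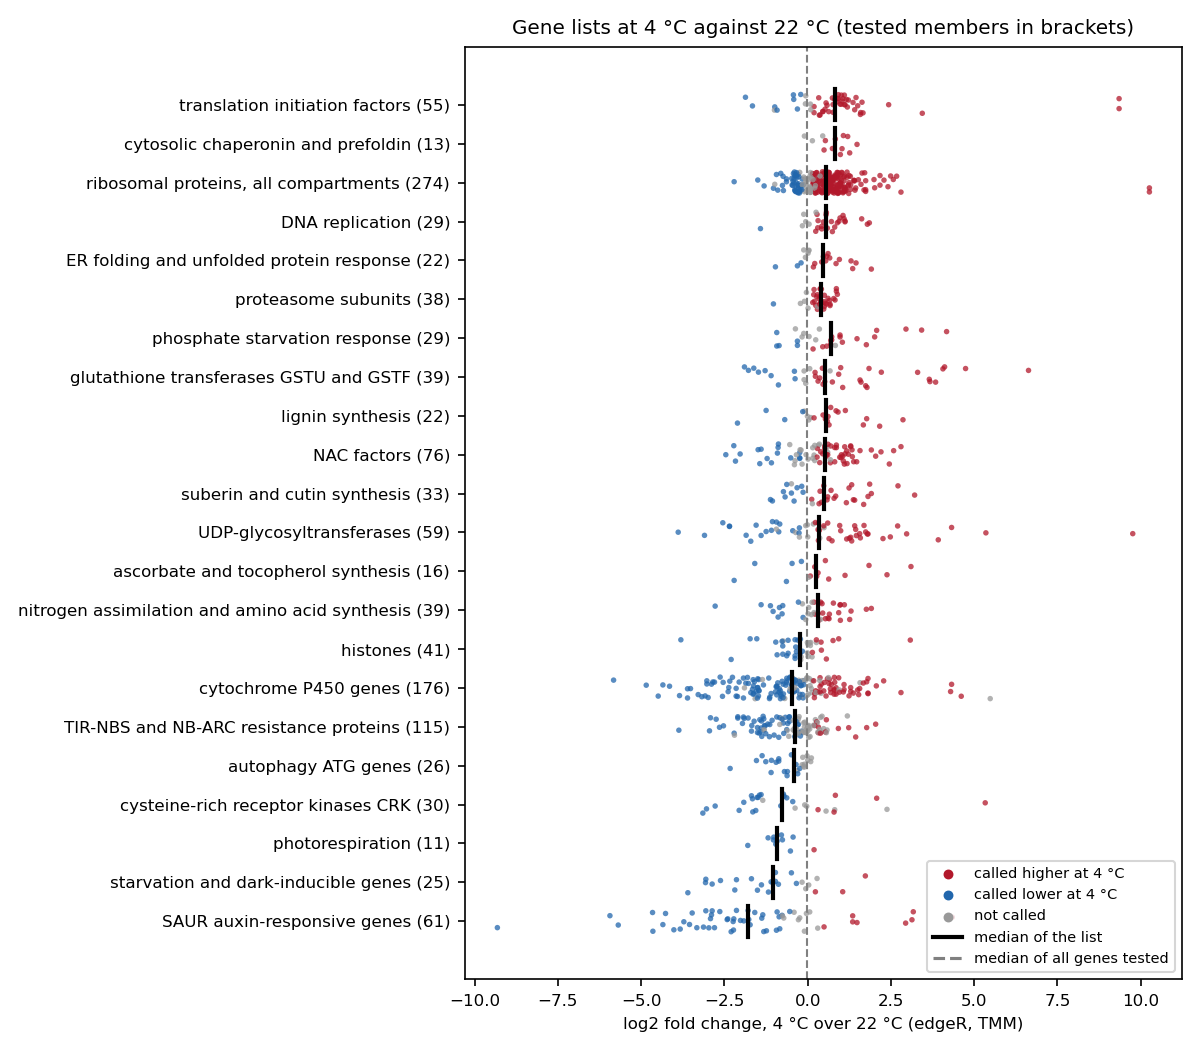
log2 fold change of 4 °C over 22 °C for the tested members of 22 gene lists, 1 point per gene, coloured by the edgeR call (red higher, blue lower, grey not called at 0.05); black bars are list medians and the dashed line the median of all tested genes (-0.03). List medians run between 0.83 for the cytosolic chaperonin and prefoldin and -1.79 for SAUR genes, and most lists hold members on each side of 0. Of the points beyond 9 on either side, UGT78D3 had counts at 22 °C, and the others are genes with no count in 1 group, whose fitted values are not bounds.

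In families that decorate and detoxify small molecules rises outnumbered falls (all tested genes: 36.3% rose, 37.6% fell). Among 59 UDP-glycosyltransferases, which attach sugars to small molecules, 32 rose and 18 fell (median 0.35), 21 of the rises by at least 2-fold. UGT84A2 (AT3G21560), a sinapate glycosyltransferase, had 385, 382 and 377 CPM at 4 °C, against 23.7, 27.4 and 24.1 CPM at 22 °C (3.92 ± 0.051), and UGT85A5 (AT1G22370, -3.89 ± 0.26) fell. Glutathione transferases of the tau and phi classes rose in 25 of 39 members and fell in 9 (median 0.51). GSTU25 (AT1G17180) had 233, 246 and 265 CPM at 4 °C, against 12.6, 14.5 and 16 CPM at 22 °C (4.11 ± 0.075), and GSTF12 (AT5G17220, 4.06 ± 0.096), which carries anthocyanins to the vacuole, rose too. Of 176 cytochrome P450 genes, by contrast, 98 (55.7%) fell and 48 rose (median -0.46), although CYP707A1 (AT4G19230, 4.61 ± 0.097), which degrades abscisic acid, was among the rises. Class III peroxidases fell in 29 of 57 members and rose in 17 (median -0.25), beside the fall of root markers.

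Glucosinolates, the mustard oil precursors of this plant family, had members called in either direction (all tested genes: 36.3% rose, 37.6% fell). The aliphatic branch had 6 rises and 13 falls among 28 genes (median -0.12), and 1 gene in each direction changed by at least 2-fold. That rise was FMO GS-OX4 (AT1G62570), a side-chain oxidase, with 1535, 1533 and 1460 CPM at 4 °C, against 45.2, 46.2 and 43.3 CPM at 22 °C (5.07 ± 0.035). Indole glucosinolate and camalexin genes gave 11 rises and 8 falls among 21 (median 0.23). CYP79B3 (AT2G22330, -3.08 ± 0.066) and CYP79B2 (AT4G39950, -2.26 ± 0.058), which turn tryptophan into the first intermediate, fell together. The methyltransferase IGMT1 (AT1G21100) had 5.08, 5.48 and 4.61 CPM at 4 °C, against 107, 105 and 113 CPM at 22 °C (-4.42 ± 0.065), while its relative IGMT2 (AT1G21120, 2.49 ± 0.077) rose.

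Genes of wall and barrier polymers changed in either direction (all tested genes: 36.3% rose, 37.6% fell). Lignin synthesis genes rose in 14 of 22 members and fell in 4 (median 0.56), C4H (AT2G30490), an early enzyme of the phenylpropanoid route, to 658, 664 and 654 CPM at 4 °C, against 208, 203 and 211 CPM at 22 °C (1.67 ± 0.034). Genes of suberin and cutin, the waxy barriers of roots and shoots, rose in 21 of 33 members and fell in 10 (median 0.48), with the acyltransferases GPAT7 (AT5G06090, 3.21 ± 0.16) and GPAT5 (AT3G11430, 1.86 ± 0.077) and the transporter ABCG1 (AT2G39350, 1.81 ± 0.074) higher. Pectin methylesterases and their inhibitors fell in 27 of 59 members and rose in 20 (median -0.23), and the members differed widely. AT5G62360, an inhibitor-type gene, had 316, 309 and 331 CPM at 4 °C, against 19.5, 19 and 18.7 CPM at 22 °C (4.06 ± 0.040), and AT3G17130 (5.78 ± 0.073), of the same type, rose as well. Arabinogalactan proteins gave 16 rises and 23 falls among 43 (median -0.35), with AGP12 (AT3G13520, 2.09 ± 0.061) higher and AGP16 (AT2G46330, -3.05 ± 0.066) lower.

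In the auxin pathway falls outnumbered rises (all tested genes: 36.3% rose, 37.6% fell). SAUR genes, small auxin-induced genes tied to cell elongation, fell in 44 of 61 members (72.1%) and rose in 8, with a median of -1.79 and 38 falls of at least 2-fold. AT1G29460, a SAUR gene, had 0.414, 0.243 and 0.458 CPM at 4 °C, against 9.4, 9.98 and 9.24 CPM at 22 °C (-4.66 ± 0.23), and SAUR23 (AT5G18060, -4.35 ± 0.25) and SAUR29 (AT3G03820, -4.02 ± 0.27) fell as well. Genes of auxin synthesis, transport and conjugation fell in 23 of 45 members and rose in 14 (median -0.30). The efflux carriers PIN7 (AT1G23080, -3.29 ± 0.23) and PIN4 (AT2G01420, -2.37 ± 0.062), the conjugating enzyme DFL1 (AT5G54510, -2.82 ± 0.077) and the synthesis gene YUC2 (AT4G13260, -2.58 ± 0.21) all fell. PIN7 had 7.01, 8.91 and 7.52 CPM at 4 °C, against 84.1, 80.5 and 64.5 CPM at 22 °C.

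Cytokinin genes gave 11 rises and 9 falls among 26, with LOG5 (AT4G35190, 3.29 ± 0.12), which activates cytokinins, higher and the receptor gene HK2 (AT5G35750, -2.28 ± 0.22) lower, and their median of -0.01 became 0.00 with DESeq2's size factors. Ethylene genes gave 7 rises and 12 falls among 23 (median -0.21), with the synthesis genes ACS7 (AT4G26200, 2.57 ± 0.31) and ACS2 (AT1G01480, 2.15 ± 0.27) higher and the receptor gene ETR2 (AT3G23150, -1.36 ± 0.092) lower. Strigolactone and karrikin genes rose in 8 of 16 members and fell in 3 (median 0.26), and the karrikin receptor gene KAI2 (AT4G37470, 0.99 ± 0.036) was 1 of the rises. Among all tested genes 36.3% rose and 37.6% fell.

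Families of transcription factors split within themselves (all tested genes: 36.3% rose, 37.6% fell). NAC factors rose in 41 of 76 members and fell in 16 (median 0.51), with RD26 (AT4G27410, 2.80 ± 0.070), an abscisic acid responsive factor, at 92.4, 89.6 and 94.1 CPM at 4 °C and 12.4, 12 and 15.3 CPM at 22 °C. ERF and RAP2 factors rose in 21 of 45 and fell in 10 (median 0.24), with RAP2.1 (AT1G46768, 4.00 ± 0.085) and RAP2.9 (AT4G06746, 3.28 ± 0.089) among the rises. R2R3-MYB factors gave 38 rises and 23 falls among 94 (median 0.16), such as MYB15 (AT3G23250, 4.76 ± 0.42) and MYB32 (AT4G34990, 2.96 ± 0.089) upward and MYB20 (AT1G66230, -3.93 ± 0.23) downward. DOF and CDF factors rose in 7 of 12 members and fell in 1 (median 0.51), with the flowering repressor CDF1 (AT5G62430, 0.98 ± 0.10) among them.

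Of 29 NF-Y subunits 13 rose and 12 fell, beside 36.3% and 37.6% of all tested genes. Of 19 TCP factors, regulators of leaf growth, 8 rose and 5 fell. The medians of these lists (0.05 and 0.07) turned to -0.08 and -0.07 with total counts alone or upper quartile factors. NF-YC4 (AT5G63470) had 4.97, 5.48 and 5.56 CPM at 4 °C, against 50.8, 48.5 and 52.2 CPM at 22 °C (-3.24 ± 0.061), whereas NF-YA4 (AT2G34720, 2.30 ± 0.059) rose. TCP9 (AT2G45680, 2.72 ± 0.058) and TCP2 (AT4G18390, 2.41 ± 0.055) rose, and TCP11 (AT5G08330, -1.63 ± 0.079) fell. SPL factors, which promote the change to the adult phase, gave 6 rises and 5 falls among 16 (median 0.12, but -0.02 with total counts alone or upper quartile factors), with SPL9 (AT2G42200, 1.36 ± 0.11) higher and SPL3 (AT2G33810, -2.13 ± 0.17) lower.

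Signalling families differed in their balance (all tested genes: 36.3% rose, 37.6% fell). Calcium sensor and kinase genes of the CBL, CIPK and CPK families rose in 30 of 62 members and fell in 19 (median 0.16), and CIPK25 (AT5G25110) had 111, 107 and 112 CPM at 4 °C against 9.15, 9.8 and 9.9 CPM at 22 °C (3.51 ± 0.047). Light signalling genes rose in 16 of 30 members and fell in 10 (median 0.20). HYH (AT3G17609), a light-signalling bZIP factor, had 117, 111 and 128 CPM at 4 °C against 12.1, 12.2 and 12.2 CPM at 22 °C (3.29 ± 0.087), the photolyase gene PHR1 (AT1G12370, 3.01 ± 0.10) rose, and PKS4 (AT5G04190, -3.67 ± 0.17) fell. FKF1 (AT1G68050, 2.78 ± 0.098), which keeps a daily rhythm, rose too, and the hour of harvest is not given, so its part in such genes was not tested. Cysteine-rich receptor kinases fell in 18 of 30 members and rose in 5 (median -0.77), CRK10 (AT4G23180, -3.04 ± 0.14) among them. Resistance proteins of the TIR-NBS and NB-ARC type fell in 53 of 115 members (46.1%) and rose in 12, with a median of -0.38 and 34 falls of at least 2-fold.

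DNA replication genes and histone genes had medians of opposite sign (all tested genes: 36.3% rose, 37.6% fell). Of 29 DNA replication genes 23 rose and 1 fell (median 0.56), with RPA70C (AT5G45400, 1.85 ± 0.098), a single-strand binding protein, and the factor gene E2F3 (AT2G36010, 1.79 ± 0.086) highest and CDC6 (AT2G29680, -1.42 ± 0.15) the fall. Histone genes fell in 21 of 41 members and rose in 8 (median -0.22), and the linker histone gene HIS1-3 (AT2G18050) had 1.82, 2.15 and 2.45 CPM at 4 °C against 29.1, 28.6 and 32.2 CPM at 22 °C (-3.81 ± 0.12). Tubulin and actin genes rose in 12 of 21 members and fell in 8 (median 0.20), TUB9 (AT4G20890, 2.26 ± 0.033) most and TUB8 (AT5G23860, -1.68 ± 0.057) against it. RNA decay and small RNA genes gave 16 rises and 13 falls among 39 (median 0.10, but -0.04 with total counts alone or upper quartile factors), with AGO2 (AT1G31280, 1.75 ± 0.14) higher and RDR1 (AT1G14790, -1.82 ± 0.095) lower.

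The 4 °C libraries were set against the other cold groups in the same fit, in contrasts where the 22 °C libraries cancel. Against 0 °C, 12334 of 21293 genes (57.9%) differed, 28.8% of the tested genes higher at 4 °C and 29.2% lower. Against 10 °C, 12765 (59.9%) differed, 29.7% higher and 30.3% lower. At least 2-fold higher at 4 °C were 7.34% of the genes against 0 °C and 7% against 10 °C, and at least 2-fold lower 7.92% and 8.04%. These splits depend on scaling: higher calls made up 49.7% of all calls against 0 °C and 49.5% of those against 10 °C with TMM, but 73.8% and 24.1% with total counts alone. SAUR genes differed from 10 °C in 44 of 61 members as lower at 4 °C (median -1.25) and from 0 °C in 24 as higher (median 0.44). Starvation genes were lower at 4 °C than at 0 °C in 17 of 25 members and higher in 4 (median -0.63). Against 10 °C, 8 of them were higher at 4 °C and 6 lower (median 0.20, but -0.09 with total counts alone). Autophagy genes were lower at 4 °C than at 0 °C in 14 of 26 members and higher in none (median -0.24, but 0.04 with total counts alone). Against 10 °C, 11 autophagy genes were higher at 4 °C and 2 lower (median 0.10, but -0.19 with total counts alone). Photorespiration genes were lower at 4 °C in 10 of 11 members against 0 °C (median -0.49) and in 8 against 10 °C (median -0.31). Aliphatic glucosinolate genes were higher at 4 °C than at 0 °C in 20 of 28 members (median 0.63) and lower than at 10 °C in 22 (median -0.72).

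A set of 1385 genes was higher at 4 °C than at each other temperature and 1400 genes were lower, each called in all 3 comparisons, which share the 4 °C libraries. The genes named next were chosen for this pattern, so their values are a description. UGT84A1 (AT4G15480), a glycosyltransferase for hydroxycinnamic acids, had 60.1 ± 1.06 CPM at 4 °C, against 6.45 ± 0.279 at 0 °C, 5.98 ± 0.337 at 10 °C and 1.45 ± 0.28 at 22 °C (mean ± SD of 3 libraries). PXMT1, described above, averaged 50 ± 3.28 CPM at 4 °C, against 6.61 ± 0.225 at 0 °C and 2.59 ± 0.192 at 10 °C. MYB13 (AT1G06180), a MYB factor, had 30.6 ± 0.997 CPM at 4 °C, while the other temperatures lay between 5.62 and 7.65 CPM. AT5G66780, a late embryogenesis abundant protein gene, reached 6.84 ± 1.31 CPM at 4 °C, with 1.28, 0.305 and 0.0588 CPM at 0, 10 and 22 °C, and BGAL7 (AT5G20710), a galactosidase, 6.65 ± 0.757 CPM, with 1.59, 1.33 and 1.41 CPM.

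At the other end, XTH15 (AT4G14130), an enzyme that cuts and joins wall xyloglucan, had 0.318 ± 0.0721 CPM at 4 °C, against 3.07 ± 0.495 at 0 °C, 3.13 ± 0.029 at 10 °C and 11.4 ± 0.111 at 22 °C (mean ± SD of 3 libraries). The RING-type gene AT3G18773 (0.506 CPM at 4 °C against 5.83, 3.85 and 11.3 CPM at 0, 10 and 22 °C), the synthase gene AT3G23470 (0.232 against 1.74, 2.63 and 5.25 CPM) and the methyltransferase AT1G15125 (0.156 against 1.91, 1.36 and 12.4 CPM) had the same order of 4 °C below the rest. RVE8 (AT3G09600), a clock factor that activates evening genes, had no count at 4 °C, at least 99.9-fold lower than the mean of 9.49 CPM at 22 °C with the same floor. It had 0.553 CPM at 0 °C and 4.47 CPM at 10 °C, and assignment of its reads to assembled transcripts was not tested. The hour of sampling is not given and, if the series text holds, the duration differed between the cold groups; the part of either was not tested.

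**Figure D3:**
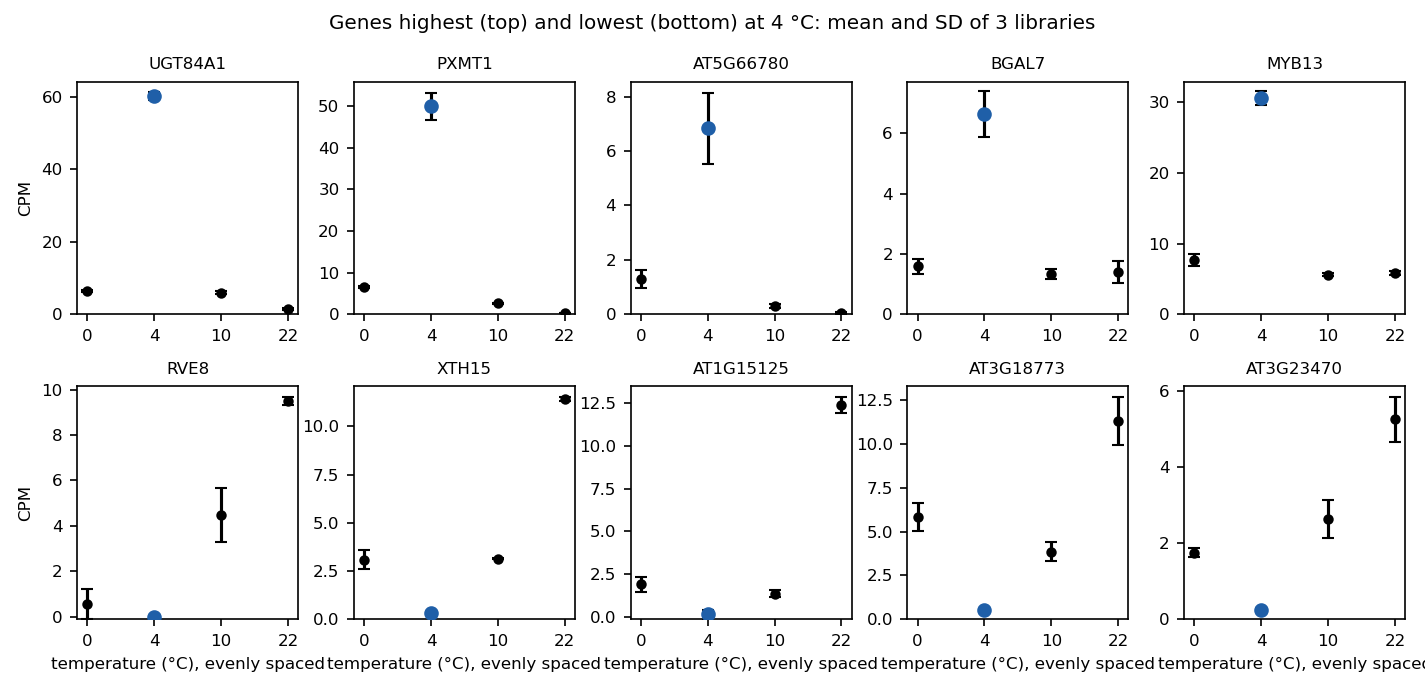
Mean CPM and SD (error bars) of 3 libraries at 0, 4, 10 and 22 °C, evenly spaced on the axis, for the 5 genes that stood highest at 4 °C (top row) and the 5 lowest at 4 °C (bottom row); the 4 °C mean is drawn larger and in blue. The genes were chosen for this pattern, for example UGT84A1 with 60.1 CPM at 4 °C against 6.45 CPM at 0 °C and 5.98 CPM at 10 °C.

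The estimated proportions of a gene's transcripts also differed between the temperatures. Of 4532 genes with at least 2 tested transcripts, 1152 (25.4%) changed their transcript proportions between 4 and 22 °C in edgeR's diffSpliceDGE test at a false discovery rate of 0.05. The Simes combination of transcript tests called 583 genes, and the counts that follow rest on the 1152. Among the 1101 of them that averaged 5 CPM or more, 204 had another main transcript at 4 °C than at 22 °C, 338 moved by at least 20 percentage points and 157 did not pass the test for the level of the whole gene. Shares are of the counts on annotated transcripts, and reads given to assembled transcripts are not in them. The test took rounded estimated counts and has no term for uncertainty in dividing reads between transcripts of a gene. UMAMIT44 (AT3G28130), an amino acid transporter family gene, had 96.6%, 100% and 100% of its counts on transcript 1 at 4 °C, against 14.2%, 12.7% and 17.8% at 22 °C. RefSeq's annotation gives that transcript 810 coding bases and the other, main at 22 °C, 1068. The gene averaged 1.62 CPM at 4 °C and 10.8 CPM at 22 °C, so the larger share of transcript 1 is not a larger amount. AT2G47830 had 100%, 100% and 96.9% on transcript 2 at 4 °C, against 18.2%, 19.7% and 22.4% at 22 °C, with 1020 coding bases against 1416 in the main transcript at 22 °C. This gene averaged 4.32 CPM at 4 °C and 7.44 CPM at 22 °C.

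BAP1 (AT3G61190), a membrane-binding defence regulator, had 78.4%, 85.1% and 85.3% on transcript 1 at 4 °C, against 16.9%, 5.33% and 0% at 22 °C. The whole gene averaged 12 CPM at 4 °C and 2.28 CPM at 22 °C. AT2G41705 had 4.46%, 2.39% and 0% on transcript 1 at 4 °C, against 85.6%, 84.1% and 64.3% at 22 °C, and LOV1 (AT1G10920), a resistance protein gene, 0.485%, 0% and 0%, against 96.8%, 38.1% and 87.8%. The coding sequences of the main transcripts are the same in each of these 3 genes, and AT2G41705 and LOV1 did not pass the test for the level of the whole gene. LpxC2 (AT1G24880) had none of its counts on transcript 2 at 4 °C, against 100%, 86.8% and 98.4% at 22 °C. The main transcripts of LpxC2 differ in coding sequence, with 369 coding bases at 4 °C and 378 at 22 °C. AT3G24740 had 0%, 0% and 40.2% on transcript 1 at 4 °C against 78.5%, 89.5% and 99.1% at 22 °C. The call for AT3G24740 ended with the Simes combination of transcript tests (adjusted p = 0.156) and in edgeR's test without the second library at 22 °C (adjusted p = 0.053).

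Counts of RCA (AT2G39730), the Rubisco activase, lay on transcript 3 for 24.1%, 40.7% and 23.3% at 4 °C, against 99%, 99.3% and 99% at 22 °C. Transcript 3 keeps an intron of transcript 2 within an exon, per RefSeq's annotation. The gene total was 83.7 CPM at 4 °C and 172 CPM at 22 °C, low beside the Rubisco small subunit gene RBCS2B (AT5G38420, 448 CPM at 4 °C and 2671 CPM at 22 °C), and assignment of its reads to assembled transcripts was not tested. Better expressed genes that were picked after their values were seen include KAT5 (AT5G48880), a fatty acid thiolase, with a mean share of transcript 1 of 67.1% at 4 °C and 12.8% at 22 °C. AGO1 (AT1G48410), the main small RNA effector, had 86% on transcript 1 at 4 °C and 47% at 22 °C.

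**Figure D4:**
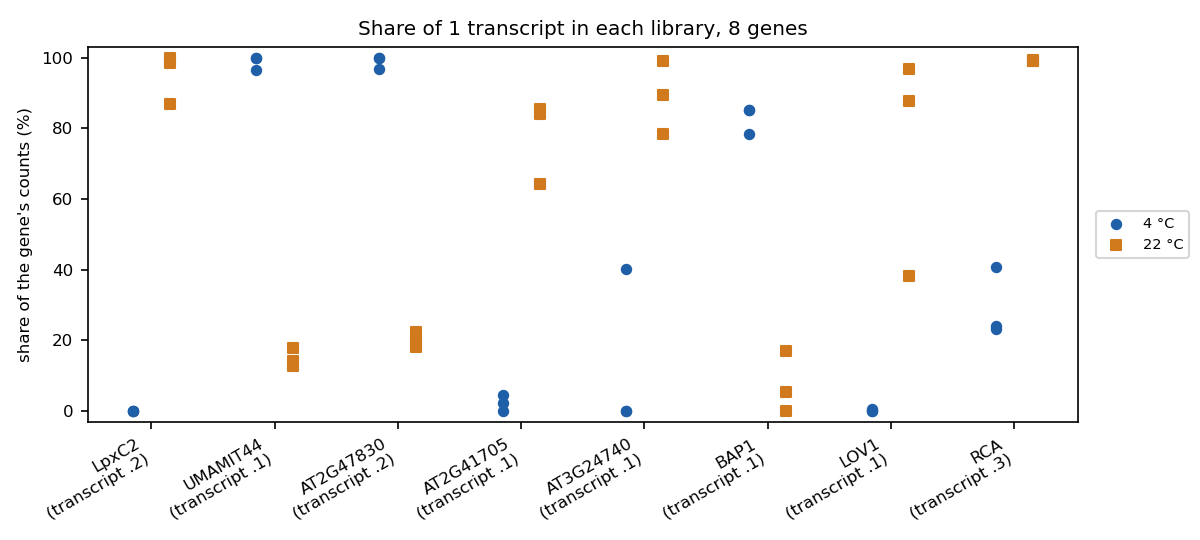
Share of the counts on annotated transcripts of a gene that lay on the transcript named under it, in each library, for the 8 genes with the largest change; circles are the 3 libraries at 4 °C and squares the 3 libraries at 22 °C. The groups do not overlap in these genes, but single libraries stand apart, such as AT3G24740 with 40.2% in 1 library at 4 °C and LOV1 with 38.1% in 1 library at 22 °C.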

How the data were processed

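RNA of whole plantlets was sequenced, and the authors deposited estimated counts for each transcript, with fractions, and CPM of the same transcripts. Per the submitters' processing notes, HISAT2 2.2.0, kallisto 0.42.4, edgeR and the TAIR10 genome were used; strand use in counting is not stated there. The deposited CPM were checked against the deposited counts and not tested. Each table holds 6 more columns that match no sample label and were not used.

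The counts of all annotated transcripts of a locus were added up and rounded to whole numbers. The 14509 assembled transcripts, which carry no gene name, were left out and may hold reads of annotated genes. edgeR 4.0.16 in R 4.3.3 (TMM factors, filterByExpr, quasi-likelihood fit of all 12 libraries with 1 mean per temperature) gave log2 fold changes and Benjamini-Hochberg adjusted p-values over all tested genes, with a threshold of 0.05. Standard errors are approximate, taken from the size of the log2 fold change and its F value. Transcript proportions were tested with diffSpliceDGE. DESeq2 1.42.0, other scalings, filters and left-out libraries were alternatives. In data simulated for 4 °C against 22 °C over 20944 genes, 67 genes were altered by 1.5-fold, 67 by 2-fold and 66 by 4-fold. The fit recovered 83.6% of genes altered by 1.5-fold and 100% of those altered by 2- or 4-fold, with 13 false calls. The altered genes were drawn only from genes with a mean of at least 100 counts, and every gene was given the same variation between libraries. Recovery in genes with fewer counts was not tested. Recovery with as large a share of altered genes as the 73.9% called in the data was not tested either.

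Named genes are the 10 largest rises, falls, gains and losses outside the well known cold genes, up to 5 members per list by size of change, the 8 largest transcript shifts and the 5 highest and 5 lowest at 4 °C, with minimum levels of 5 CPM (1 CPM in lists); some were left out for length. The lists and rules were chosen with earlier results of these data known. Names, transcript structures and promoter windows came from RefSeq's TAIR10.1 annotation, linked by locus. Each list is described by counts and its median, with no set test.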

Additional observations from a re-analysis of the deposited data

How the results depend on the processing

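Against 22 °C, between 15028 and 15290 genes were called when 1 library was left out (15739 with all), 11537 to 11775 against 0 °C and 11710 to 12057 against 10 °C, and transcript proportions changed in 938 to 986 genes. With a minimum absolute log2 fold change of 1, 6728 genes were called. The Simes combination of transcript tests called 583 genes in place of 1152. List medians near 0 changed sign with the scaling: with total counts alone and with upper quartile factors they became -0.10 for organic acid and glycolytic enzymes, -0.08 for NF-Y subunits, -0.04 for RNA decay genes, -0.02 for SPL factors and -0.07 for TCP factors, and with DESeq2's size factors 0.00 for cytokinin genes and 0.01 for plastid import and protease genes. Higher calls made up 49.1% of the calls against 22 °C, and 41.9% with total counts alone or upper quartile factors. The cause of these changes was not tested. Of 4339 alternative values for named genes, none turned its direction and 8, in 3 genes, lost the call. These genes were called and mostly chosen for large changes in the same data. Their directions could hardly turn, and the result does not measure how stable other genes are.

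Deviations of libraries with the same replicate number at 4 °C and 22 °C correlated at 0.11, 0.02 and 0.28. Those of libraries with different numbers correlated at -0.22 to 0.15, and whether the numbers pair the samples was not tested. With the number as a replicate block, 15592 genes were called against 22 °C, 12122 against 0 °C and 12502 against 10 °C, and 1056 for transcript proportions. Depth limits genes with few counts, where 1 count was worth 0.027 to 0.0338 CPM at 4 °C.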
